A study of Homo sapiens with 16 samples.

Results

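UACC62 is an established human melanoma cell line. Its vemurafenib-resistant derivative UACC62R was set against the parental line UACC62P after both had spent 24 h in 10 uM CCG-222740, an inhibitor of the MRTF/SRF transcription pathway, across all genes. The 4 libraries at 24 h, 2 per line, were taken by their labels from the 16 of the whole series, and the question was which of the differences between the lines were still there in the drug, which had shrunk and which had widened. The groups were UACC62R at 24 h, UACC62P at 24 h, UACC62R at 0 h and UACC62P at 0 h, with 2 libraries each, and the 2 libraries per line at 6 h served as a side comparison. The labels of UACC62R at 0 h name selection for 2 months in 2 uM vemurafenib, a BRAF inhibitor. The labels used here do not say whether vemurafenib was in the medium of the treated UACC62R cells. The 0 h cells were untreated, no vehicle library was used here, and the labels of the 0 h libraries are worded differently from those of the treated ones, so 24 h of drug and 24 h of culture cannot be told apart. Nothing in the labels says that the libraries numbered 1 and 2 came from separate cultures, so every p-value below measures the spread between these libraries, which may be technical. The comparison rests on 1 parental line and 1 resistant derivative, each with 1 history.

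Melanoma cells with mutant BRAF depend on MAPK signalling, and vemurafenib blocks it at the mutated kinase. Resistant cells often lose the melanocyte programme driven by MITF and SOX10 and take up a mesenchymal programme with AXL, integrins and matrix genes. Such cells carry more actin stress fibres, and free actin is the sensor of MRTF-A and MRTF-B, coactivators that leave actin, enter the nucleus and work with SRF at CArG boxes in cytoskeletal genes. YAP and TAZ, coactivators that act through the TEAD factors, respond to the same cytoskeletal tension, so targets of both pathways bear on a drug of this kind.

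Libraries held 28.6 to 32.6 M gene-assigned reads at 24 h and 25.9 to 33.3 M over the series. The library labelled UACC62P 2 h replicate 1 stood apart. On a scale where UACC62P is 0 and UACC62R is 1, it lay at 0.987 over 129 genes that differ between the lines, against 0.978 to 1.012 in the 8 libraries labelled UACC62R and -0.011 to 0.004 in the 7 others labelled UACC62P. It was left out of the fit, which held 15 libraries and 20280 genes, and results with it are given at the end. TYR, MLANA, MITF and SOX10, some of the melanocyte markers chosen, checked the labelled cell type. In UACC62P these were plentiful, whereas in UACC62R TYR and MLANA were nearly absent and MITF and SOX10 were low but present. The other melanocyte markers chosen are not reported here. Markers of other cell types stayed low at 24 h. The summed level of 10 epithelial markers was 11.9 to 14.7 CPM (read counts scaled to a common library size) in UACC62R and 11 to 13.2 CPM in UACC62P, with no read of CDH1 in either line. That of 8 endothelial markers was 8.68 to 9.29 CPM in UACC62R and 1.31 to 1.68 CPM in UACC62P, with no read of PECAM1 in either line. That of 10 blood cell markers was 11.9 to 12.5 CPM in UACC62R and 1.36 to 1.74 CPM in UACC62P, with no read of CD3E, MS4A1 or HBB in either line. Most of the last sum in UACC62R was CSF1R, a macrophage growth factor receptor, with 10.8 and 11.1 CPM in UACC62R against 0.409 and 0.212 CPM in UACC62P.

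6 promoters stand for the programmes the results turn on: lineage (TYR), YAP/TAZ targets (CCN2 and AMOTL2), MRTF/SRF targets (ACTG1) and DNA replication (MCM6 and DTL). MCM6 and DTL were chosen after the values were seen, and the naming rule reached TYR, AMOTL2 and ACTG1 through their difference or its change. Each is the 250 bases before the gene start in RefSeq on GRCh38.p14, 5′ to 3′ on the gene's strand, with matches to the named motif in capitals.
TYR: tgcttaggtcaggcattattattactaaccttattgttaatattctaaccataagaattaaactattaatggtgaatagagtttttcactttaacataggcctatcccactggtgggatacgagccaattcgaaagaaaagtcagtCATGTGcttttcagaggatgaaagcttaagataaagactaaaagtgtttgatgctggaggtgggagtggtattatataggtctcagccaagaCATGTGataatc
CCN2: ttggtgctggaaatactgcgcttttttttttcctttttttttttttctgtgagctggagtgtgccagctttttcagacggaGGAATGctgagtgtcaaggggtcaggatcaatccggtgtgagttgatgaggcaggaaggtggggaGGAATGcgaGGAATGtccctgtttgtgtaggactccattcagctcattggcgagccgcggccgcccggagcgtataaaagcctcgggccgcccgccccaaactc
AMOTL2: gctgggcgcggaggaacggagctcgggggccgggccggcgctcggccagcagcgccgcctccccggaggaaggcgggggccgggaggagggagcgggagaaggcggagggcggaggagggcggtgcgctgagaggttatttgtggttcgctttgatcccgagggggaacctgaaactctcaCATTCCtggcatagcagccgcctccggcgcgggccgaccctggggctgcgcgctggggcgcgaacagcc
ACTG1: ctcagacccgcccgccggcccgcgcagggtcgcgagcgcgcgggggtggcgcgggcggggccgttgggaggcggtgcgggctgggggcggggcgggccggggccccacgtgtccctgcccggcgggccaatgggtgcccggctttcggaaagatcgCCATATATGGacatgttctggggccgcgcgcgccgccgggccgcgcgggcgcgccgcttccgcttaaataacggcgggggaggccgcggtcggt
MCM6: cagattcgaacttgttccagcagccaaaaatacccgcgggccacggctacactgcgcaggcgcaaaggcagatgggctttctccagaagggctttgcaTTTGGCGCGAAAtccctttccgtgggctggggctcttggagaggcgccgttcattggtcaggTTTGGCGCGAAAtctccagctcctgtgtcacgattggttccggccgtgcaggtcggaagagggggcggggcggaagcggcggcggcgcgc
DTL: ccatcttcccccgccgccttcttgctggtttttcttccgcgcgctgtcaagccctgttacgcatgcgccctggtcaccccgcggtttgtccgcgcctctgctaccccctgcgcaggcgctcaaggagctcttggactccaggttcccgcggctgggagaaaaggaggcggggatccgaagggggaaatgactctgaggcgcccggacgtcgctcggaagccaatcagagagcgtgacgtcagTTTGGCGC
TYR lies at chr11:89177625-89177874 on the plus strand, with the core of the MITF motif, CATGTG, 104 and 12 bases before the start. CCN2 lies at chr6:131951373-131951622 on the minus strand, with 3 copies of the TEAD motif GGAATG at -169, -104 and -95, and AMOTL2 (the upstream window of 2) at chr3:134374448-134374697 on the minus strand, with 1 copy on the other strand at -69. ACTG1 lies at chr17:81512800-81513049 on the minus strand, with a CArG box at -94. MCM6 lies at chr2:135876444-135876693 on the minus strand and holds E2F motifs in pairs, at -152 and -148 and at -90 and -86, each pair being TTTGGCGC with an overlapping TTTCGCGC on the other strand. DTL lies at chr1:212035498-212035747 on the plus strand, with TTTGGCGC at -8. Both strands were searched, and the E2F search took TTTCCCGC, TTTCGCGC, TTTGCCGC and TTTGGCGC. Of 35116 RefSeq windows of this length, from 27305 genes, 11.9% held the TEAD motif, 9.42% CATGTG, 1.16% a CArG box and 2.79% an E2F motif. Shares here and below count windows and not genes, and a gene can have several windows or none. A match describes these letters and is not evidence of binding. Only genes with a match in a window were printed, so the matches in these 6 were fixed by that choice.

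The lines differed in about as many genes after 24 h of drug as before it. Of the 20280 genes tested, 11145 (55.0%) differed between UACC62R and UACC62P at 24 h by edgeR's quasi-likelihood F test, at an adjusted p (Benjamini-Hochberg over all genes) under 0.05: 5675 were higher in UACC62R (28.0%) and 5470 were lower (27.0%). At least 2-fold differences numbered 5577 (27.5%), 3445 higher (17.0%) and 2132 lower (10.5%), and 1448 genes were at least 8-fold higher and 512 at least 8-fold lower. Before the drug, 10898 genes (53.7%) differed, 5614 higher (27.7%) and 5284 lower (26.1%). All adjusted p below are of this kind, and all differences are log2 values of UACC62R over UACC62P. A "±" after a log2 value is its standard error, with 2 libraries against 2 for a line difference. For a change it spans the 8 libraries at 0 and 24 h. The word "changed" refers to the line difference at 24 h minus that at 0 h. This change lay below 0 for 10611 of the 20280 genes and above 0 for 9669.

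Most differences remained. 9116 genes (45.0% of those tested) differed in the same direction at both times with no called change, 4646 higher and 4470 lower in UACC62R, and their median absolute log2 difference was 1.07 at 24 h and 1.04 at 0 h. A missed call does not show equality: for 5995 of them (65.8%) the 95% interval of the change lay within 2-fold either way, and for 3998 (43.9%) within 1.5-fold. Of the 2084 genes at least 8-fold apart at 0 h, 1855 were called in the same direction at 24 h and 17 changed. Over the 11673 genes whose mean log2 CPM was 2 or more, the log2 differences at 24 h and at 0 h, which share no library, had a Pearson r of 0.976 and a Spearman rank correlation of 0.94 across genes, which are not independent replicates. Among the 2231 of them called and at least 2-fold apart at 6 h, 2229 had the same sign at 24 h and 0 h, 57.0% were closer at 24 h than at 0 h, and the median absolute log2 difference was 1.77 at 24 h and 1.78 at 0 h.

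**Figure D1:**
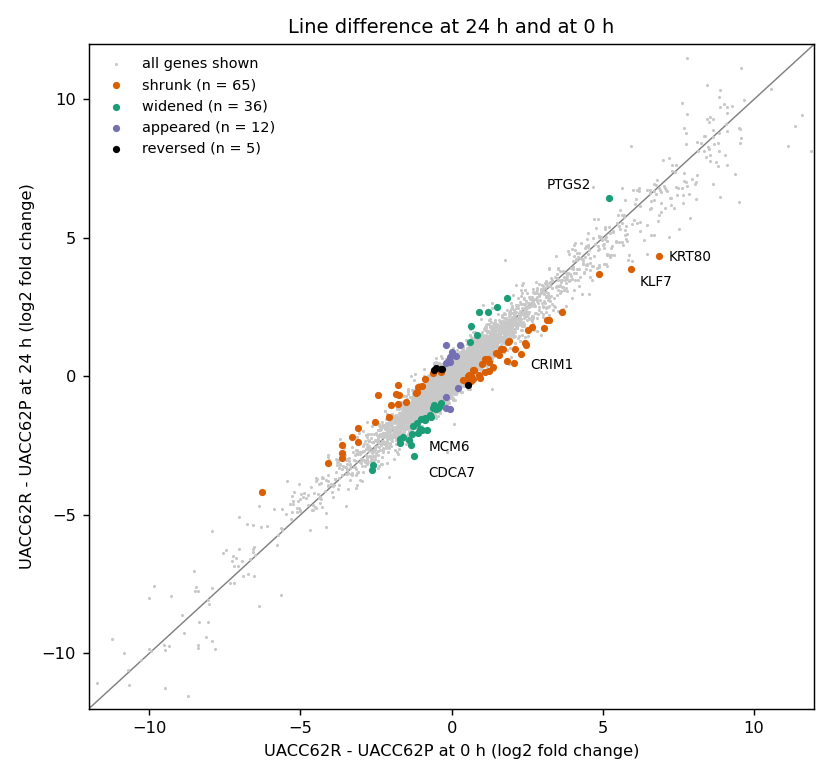
Line difference (log2 of UACC62R over UACC62P) after 24 h of CCG-222740 on the vertical axis against that at 0 h on the horizontal axis, for 11673 genes whose mean log2 CPM was 2 or more, 1 point a gene. Most points lie along the diagonal of equal difference, and the coloured points are the genes with a called change: 65 shrunk, 36 widened, 12 that appeared and 5 reversed.

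A called change was rare in the fit as reported, which does not pair the libraries by replicate number. 121 genes (0.597%) changed, 47 upward (0.232%) and 74 downward (0.365%), against 2174 at an unadjusted p under 0.05. 65 differences shrank, with a median absolute log2 difference of 0.67 at 24 h and 1.73 at 0 h, and 41 of these were higher in UACC62R at 0 h. 37 widened, 28 of them lower in UACC62R, with a median of 1.9 at 24 h and 1.01 at 0 h. The direction of the change defines both classes, so which of their medians is larger was fixed in advance. 12 appeared, with a called change and a call at 24 h but not at 0 h, and 7 reversed. A further 1921 genes (9.47%) were called at 24 h only and 1669 (8.23%) at 0 h only, with no called change. The calls were thin: with each of the 8 libraries at 0 and 24 h left out in turn, 14 of the 121 stayed called every time, namely CRIM1, AMOTL2, FBN1, MAP3K14, MT2A, F2RL2, SDC4 and MEF2C among the shrunk, MCM6, CDCA7, FRMD5, IL1RAP and CCN3 among the widened, and DTL, which appeared. Blocking on the replicate number called the change for 904 of the 20280 genes, 397 upward and 507 downward, all 121 among them. The common dispersion was 0.00425 with the block and 0.00985 without it. Of the 9116 genes that remained, the block left 8614 so, and made 211 shrunk and 267 widened. The number of changes and of differences that remained thus depends on whether the libraries are paired. With the library labelled UACC62P 2 h replicate 1 put back, no change was called.

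The melanocyte programme was low in UACC62R and remained so in the drug. Of 12 lineage transcription factors tested, 10 were lower and 1 higher at 24 h (median log2 difference -2.3 at 24 h and -2.37 at 0 h, against 0.02 over all genes at either time), of 16 pigment and melanosome genes 10 were lower and 3 higher (median -1.58 at 24 h and -1.96 at 0 h), and of 15 Schwann-like and neural crest genes 12 were lower and 2 higher (median -3.25 at 24 h and -3.02 at 0 h). The shares over all genes at 24 h were 27.0% lower and 28.0% higher. No gene of these 3 lists changed, while the replicate block called 1 of the transcription factors, 4 of the pigment genes and 4 of the Schwann-like genes. That block called 904 of all 20280 genes. In bulk RNA, fewer cells with a transcript and less of it per cell cannot be told apart.

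TYR (ENSG00000077498), tyrosinase, the enzyme that starts pigment synthesis and whose promoter is printed above, had 0.13 and 0.204 CPM in UACC62R at 24 h, against 138 and 150 CPM in UACC62P, a log2 difference of -9.7 ± 0.18 (adjusted p = 3.96e-15). MLANA, a melanosome protein, had 0.162 and 0.233 CPM in UACC62R against 89.0 and 99.1 CPM in UACC62P (-8.85 ± 0.19). The libraries of the lines did not approach each other for either gene. SOX10, the neural crest factor that keeps melanocyte identity, had 29.9 and 27.0 CPM in UACC62R, against 856 and 803 CPM in UACC62P (-4.87 ± 0.11), and MITF, the master regulator of pigment genes, had 41.0 and 41.4 CPM in UACC62R against 171 and 167 CPM in UACC62P (-2.04 ± 0.10). At 0 h the differences were -9.51 for TYR, -8.05 for MLANA, -5.03 for SOX10 and -2.21 for MITF, and the change was not called for any of them (adjusted p 0.968, 0.533, 0.754 and 0.748). SOX6 (-5.72), LEF1 (-2.88) and IRF4 (-7.01), other factors of the lineage, and the melanosome genes SLC24A5 (-6.43) and DCT (-6.27) were lower too. CATGTG lay in 8 of 21 promoter windows of the pigment list (38.1%), which came from 13 of its 16 genes.

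**Figure D2:**
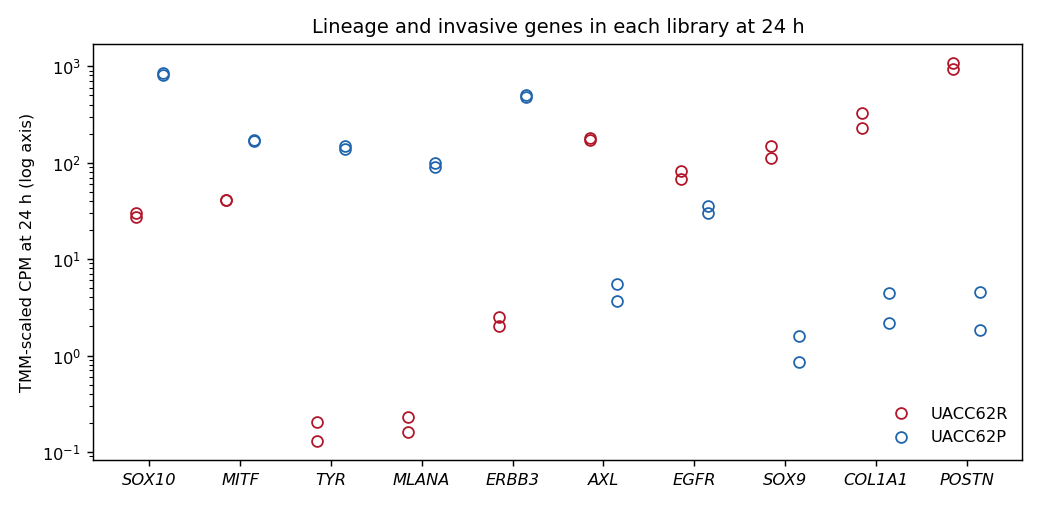
CPM on a log axis at 24 h in each library of UACC62R and UACC62P for genes of the melanocyte and invasive programmes, set side by side. The libraries of UACC62R and UACC62P are apart, with SOX10 at 29.9 and 27.0 CPM in UACC62R against 856 and 803 CPM in UACC62P.

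For the 20 largest differences at 24 h that the naming rule took (10 each way), no change was called. GJB1, a gap junction protein, had 0.455 and 0.408 CPM in UACC62R against 430 and 410 CPM in UACC62P (-9.92 ± 0.14). CHRDL1, an antagonist of BMP ligands, differed by -9.74 ± 0.24, FABP7, a fatty acid binding protein of glia and melanoma, by -8.86 ± 0.17, and ITIH5, a hyaluronan-binding protein, by -8.63 ± 0.18. ERBB3, the neuregulin receptor, had 2.5 and 2.04 CPM in UACC62R against 501 and 474 CPM in UACC62P (-7.75 ± 0.11). Its difference at 0 h was -8.39, and the change of 0.63 ± 0.18 was not called (adjusted p = 0.143) but was called with the replicate block (0.0456). LPL (-8.09), TEX11 (-8.2) and ATP10B (-7.74) completed this end with TYR and MLANA.

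At the other end, ADAMTS12, a secreted metalloprotease, had 146 and 121 CPM in UACC62R against 0.307 and 0.247 CPM in UACC62P (8.89 ± 0.18). KCNJ15, a potassium channel, differed by 8.84 ± 0.13, TENM2, an adhesion protein of neurons, by 8.79 ± 0.14, and ADAMTS2, which trims procollagen, by 8.42 ± 0.29. POSTN, the matricellular protein periostin, was the most abundant of them, with 924 and 1080 CPM in UACC62R against 4.57 and 1.84 CPM in UACC62P (8.28 ± 0.38). BEX1 (8.43), TMSB4X (8.43), CPA4 (8.15), SUCNR1 (8.15) and TNFRSF11B (8.0) followed. TMSB4X has near copies in the genome, so its counts of uniquely aligned reads are uncertain. Other genes had under 10 reads in 1 line, and only their levels are given. TLL1, a protease that matures collagen, had 125 and 120 CPM in UACC62R against 0.136 and 0.0353 CPM in UACC62P, and MME, the cell surface peptidase neprilysin, had 81.1 and 94.4 CPM in UACC62R against 0.0682 and 0 CPM in UACC62P. LYPD6B, CACNA2D3 and LINC02154 had 35.0 to 72.3 CPM in UACC62R. RXRG, a retinoid receptor of neural crest cells, had 0.0974 and 0.146 CPM in UACC62R against 139 and 117 CPM in UACC62P, and PMP2, a myelin protein, 0.0974 and 0.0874 CPM in UACC62R against 123 and 110 CPM in UACC62P. ITIH6, FXYD3 and UROC1 had 51.9 to 156 CPM in UACC62P.

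Most genes of the invasive programme were higher in UACC62R at both times, with a smaller median difference at 24 h. Among 22 genes that mark invasive, dedifferentiated melanoma, 14 were called higher and 2 lower at 24 h, where 28.0% of all genes were higher and 27.0% lower. Their median log2 difference was 1.85 at 24 h and 2.57 at 0 h. The change lay below 0 for 19 of the 22 (median -0.32) and was called for 2, both downward. It lay below 0 for 10611 of all 20280 genes. At 24 h against 0 h, 7 fell and none rose in UACC62R, and 3 fell and 1 rose in UACC62P. Of all genes, 8.14% fell and 6.48% rose in UACC62R, and 1.77% fell and 2.34% rose in UACC62P. AXL (ENSG00000167601), a receptor kinase that marks this state, had 172 and 178 CPM in UACC62R against 5.52 and 3.71 CPM in UACC62P (5.24 ± 0.16), and 229 and 267 CPM in UACC62R against 3.43 and 3.17 CPM in UACC62P at 0 h (6.23 ± 0.17). The libraries of UACC62R at 24 h lay below those at 0 h, but the change of -0.99 ± 0.23 was not called (adjusted p = 0.0757). SOX9, a factor opposed to SOX10 in melanoma, differed by 6.72 at 24 h and 6.12 at 0 h, and CDH13, a cadherin without a cytoplasmic domain, by 6.95 and 6.68. FOSL1, an AP-1 subunit, and KRT18, a keratin, shrank: FOSL1 had 258 and 227 CPM in UACC62R at 24 h against 134 and 134 CPM in UACC62P (0.85 at 24 h, 1.46 at 0 h, change -0.61, adjusted p = 0.0218), and KRT18 differed by 0.78 at 24 h and 1.56 at 0 h (change -0.79, adjusted p = 0.0218). The call was lost for KRT18 with any of the 8 libraries left out and for FOSL1 with any but UACC62R 24 h replicate 1 (adjusted p up to 0.117 and 0.125).

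Of 26 receptor tyrosine kinases tested, 12 were higher and 10 lower in UACC62R at 24 h, and 15 were higher and 10 lower at 0 h. Over all genes, 28.0% were higher and 27.0% lower at 24 h. EGFR had 82.5 and 67.5 CPM in UACC62R against 35.6 and 29.8 CPM in UACC62P (1.2 ± 0.12), with 78.2 and 80.5 CPM in UACC62R against 26.2 and 21.0 CPM in UACC62P at 0 h (1.75 ± 0.12). UACC62P libraries were higher at 24 h than at 0 h (log2 0.47, adjusted p = 0.0403), and the change was -0.55 ± 0.17 (adjusted p = 0.168, and 0.00608 with the replicate block). EPHB2, an ephrin receptor, differed by 4.99 at 24 h and 4.68 at 0 h, and PDGFRB, the PDGF receptor of mesenchymal cells, by 4.62 and 5.03. TYRO3, a relative of AXL, was the 1 receptor that changed: it had 31.6 and 31.1 CPM in UACC62R against 152 and 152 CPM in UACC62P at 24 h (-2.28 at 24 h, -1.72 at 0 h, change -0.56, adjusted p = 0.0326). That call was lost with any of the 8 libraries left out (adjusted p up to 0.133). With the replicate block, 6 receptors changed, all downward. BRAF itself, with 42.4 and 35.5 CPM in UACC62R against 44.7 and 42.7 CPM in UACC62P at 24 h, was not called at either time (-0.17 ± 0.10, adjusted p = 0.188), nor was NGFR, a neural crest receptor, at 1.69 and 1.4 CPM in UACC62R against 2.01 and 2.05 CPM in UACC62P.

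More integrin, matrix and matrix protease genes were higher than lower in UACC62R at both times. Over all genes, 28.0% were higher and 27.0% lower at 24 h. Of 17 integrin subunits 9 were higher and 5 lower at 24 h (median 1.02, and 1.16 at 0 h), of 25 collagens and matrix genes 13 were higher and 6 lower (median 0.64, and 1.08 at 0 h), and of 20 matrix proteases and inhibitors 12 were higher and 7 lower (median 0.54, and 0.24 at 0 h). The change lay below 0 for 9 of the integrins, 17 of the collagens and matrix genes and 7 of the proteases and inhibitors. It lay below 0 for 10611 of all 20280 genes, a share close to that of the integrins. ITGA11, a collagen receptor subunit, had 583 and 437 CPM in UACC62R against 2.76 and 2.37 CPM in UACC62P (7.63 ± 0.33), and ITGA3, a laminin receptor subunit, 3860 and 2840 CPM in UACC62R against 104 and 77.4 CPM in UACC62P (5.21 ± 0.33). The collagen genes COL6A3 (6.83), COL5A1 (6.81), COL3A1 (6.64) and COL1A1 (6.38) were likewise higher. 3 members of these lists had a called downward change besides FBN1, which is described below. ITGAV, the vitronectin receptor subunit, differed by -0.09 at 24 h and 0.71 at 0 h (change -0.79, adjusted p = 0.0169). COL6A1 differed by 1.28 at 24 h and 1.9 at 0 h (change -0.62, adjusted p = 0.0204). PLAT, tissue plasminogen activator, widened on the other side, with 208 and 169 CPM in UACC62R against 745 and 684 CPM in UACC62P at 24 h and 423 and 422 CPM in UACC62R against 779 and 705 CPM in UACC62P at 0 h (change -1.11, adjusted p = 0.0169). Each of these 3 calls was lost without UACC62P 0 h replicate 2, without either UACC62P 24 h library and without UACC62R 0 h replicate 2, and that of COL6A1 also without UACC62R 0 h replicate 1 (adjusted p up to 0.0994 for ITGAV, 0.1 for COL6A1 and 0.0804 for PLAT).

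The differences that shrank included YAP/TAZ targets. Of 22 tested, 10 were higher and 9 lower at 24 h, against 12 higher and 3 lower at 0 h, and the median log2 difference was 0.29 at 24 h and 0.76 at 0 h. The shares over all genes were 28.0% higher and 27.0% lower at 24 h, and 27.7% and 26.1% at 0 h. The change was called for 4 (0 upward, 4 downward) and lay below 0 for 21, with a median of -0.59 against -0.02 over all genes. Of all 20280 genes, 10611 had a change below 0 and 0.365% a called downward change. Calls numbered 10, all downward, with the replicate block, and 2 to 4 with 1 library left out, 2 without UACC62P 24 h replicate 2. At 24 h against 0 h, 14 fell in UACC62R and none rose, where 2966 of all genes (14.6%) were called and 1651 (8.14%) fell. In UACC62P 2 fell and none rose, where 833 of all genes (4.11%) were called and 359 (1.77%) fell. These comparisons share libraries with the change, so they are its parts and not further evidence. The median at 24 h was -0.08 in a fit to the 4 libraries at 24 h alone, which tests other genes.

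CRIM1 (ENSG00000150938), a transmembrane protein that binds BMP ligands, had 145 and 132 CPM in UACC62R against 86.5 and 72.8 CPM in UACC62P at 24 h, and 413 and 443 CPM in UACC62R against 94.3 and 78.3 CPM in UACC62P at 0 h. UACC62R was above UACC62P at both times but far closer to it at 24 h. The difference was 0.80 ± 0.11 at 24 h and 2.31 ± 0.12 at 0 h, a change of -1.51 ± 0.16 (adjusted p = 0.00158). AMOTL2, an angiomotin that restrains YAP and is itself a target, had 46.9 and 40.8 CPM in UACC62R against 19.4 and 21.0 CPM in UACC62P at 24 h, and 112 and 98.9 CPM in UACC62R against 21.4 and 17.0 CPM in UACC62P at 0 h. Its difference was 1.12 at 24 h and 2.45 at 0 h (change -1.33 ± 0.19, adjusted p = 0.00744). At 24 h against 0 h, UACC62R fell by 1.62 for CRIM1 and by 1.26 for AMOTL2 on the log2 scale, and UACC62P was not called (-0.12 and 0.07).

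CCN2, a secreted matricellular protein and the usual readout of YAP/TAZ, had 30.4 and 35.3 CPM in UACC62R against 13.3 and 15 CPM in UACC62P at 24 h, and 111 and 101 CPM in UACC62R against 18.5 and 21.1 CPM in UACC62P at 0 h. The change was -1.2 ± 0.18 (adjusted p = 0.00941), and it was not called without UACC62P 24 h replicate 2 (0.0571). Its relative CCN1 had 19.0 and 23.2 CPM in UACC62R against 5.35 and 4.98 CPM in UACC62P at 24 h, and 95.1 and 93.6 CPM in UACC62R against 9.45 and 10.8 CPM in UACC62P at 0 h. Here both lines fell, UACC62R by 2.16 and UACC62P by 0.97 on the log2 scale (adjusted p = 1.85e-07 and 0.00209), and the change was -1.19 ± 0.20 (adjusted p = 0.0156). The CCN1 call was lost without UACC62P 0 h replicate 1, either UACC62P 24 h library or UACC62R 0 h replicate 2 (adjusted p up to 0.0959). ANKRD1, a cardiac ankyrin repeat protein and strong target in other cells, was near the floor, with 0.162 and 0.117 CPM in UACC62R against 0.0341 and 0 CPM in UACC62P at 24 h, and its change was not called. Among the members lower in UACC62R at both times were TEAD4 (-2.09 at 24 h, -1.43 at 0 h) and TGFB2 (-4.3 at 24 h, -3.68 at 0 h). GGAATG lay in 7 of 17 promoter windows of this list (41.2%) and in 11 of 49 windows of the shrunk genes with a downward change (22.4%). The windows came from 15 of 22 and 28 of 41 genes, and some list members are among the shrunk genes.

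8 MRTF/SRF cytoskeletal targets changed in the same direction. Of 21 tested, 16 were higher and 3 lower in UACC62R at 24 h, against 19 higher and 1 lower at 0 h, with a median of 0.76 at 24 h and 1.19 at 0 h. The shares over all genes were 28.0% higher and 27.0% lower at 24 h, and 27.7% and 26.1% at 0 h. The change was called for the 8, all downward, and lay below 0 for 20 (median -0.48), and for 10611 of all 20280 genes. At 24 h against 0 h, 12 fell in UACC62R and 1 fell in UACC62P, and none rose in either line. Of all genes, 8.14% fell in UACC62R and 1.77% in UACC62P, and 0.365% had a called downward change. No member was called without UACC62P 24 h replicate 1 or without UACC62P 24 h replicate 2, and 1 was called in a fit to the 8 libraries at 0 and 24 h. With the replicate block 12 members were called, all downward.

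ACTG1, cytoplasmic gamma actin, had 1620 and 1260 CPM in UACC62R against 1790 and 1740 CPM in UACC62P at 24 h, and 3330 and 2980 CPM in UACC62R against 2260 and 2090 CPM in UACC62P at 0 h. UACC62R lay below UACC62P in the drug and above it before, and the difference reversed, with -0.29 ± 0.10 at 24 h (adjusted p = 0.025) and 0.54 ± 0.10 at 0 h, a change of -0.83 ± 0.15 (adjusted p = 0.0169). ACTB, cytoplasmic beta actin, had 3620 and 3570 CPM in UACC62R against 3610 and 3440 CPM in UACC62P at 24 h, and 7220 and 6970 CPM in UACC62R against 4680 and 4340 CPM in UACC62P at 0 h, so that its difference was 0.03 at 24 h and 0.65 at 0 h (change -0.63, adjusted p = 0.016). Both actins have near copies in the genome, which makes their uniquely aligned counts uncertain. VCL, vinculin, which ties actin to integrins, had 223 and 210 CPM in UACC62R against 151 and 149 CPM in UACC62P at 24 h and 391 and 342 CPM in UACC62R against 165 and 148 CPM in UACC62P at 0 h (change -0.70, adjusted p = 0.021). TPM1, a tropomyosin that stabilises filaments, differed by 1.69 at 24 h and 2.51 at 0 h (change -0.82, adjusted p = 0.031), and PDLIM7, LIMA1, FHL2 and TPM4 changed by -0.70, -0.65, -0.53 and -0.48. With the replicate block LIMA1 was called lower in UACC62R at 24 h and so reversed. Adjusted p with 1 library left out reached 0.103 for ACTG1, 0.0959 for ACTB, 0.108 for VCL and 0.141 for TPM1.

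Other targets of the pathway had no called change. ACTA2, smooth muscle actin, had 19.6 and 20.9 CPM in UACC62R against 9.1 and 9.72 CPM in UACC62P at 24 h (1.11 at 24 h, 1.19 at 0 h), and TAGLN, a smooth muscle calponin relative, differed by 2.26 at 24 h and 3.01 at 0 h. FHL1 (4.24 at 24 h, 4.3 at 0 h, change -0.06 ± 0.50) and CAPG (3.37 and 3.09, change 0.28 ± 0.20) were furthest apart. CArG boxes lay in 10 of 47 promoter windows of this list (21.3%) and in 5 of 49 windows of the shrunk genes with a downward change (10.2%). They also lay in 2 of 9 windows of the widened genes with an upward change (22.2%). These windows came from 19 of 21, 28 of 41 and 7 of 9 genes. Some list members are among the shrunk genes, so those 2 shares overlap.

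**Figure D3:**
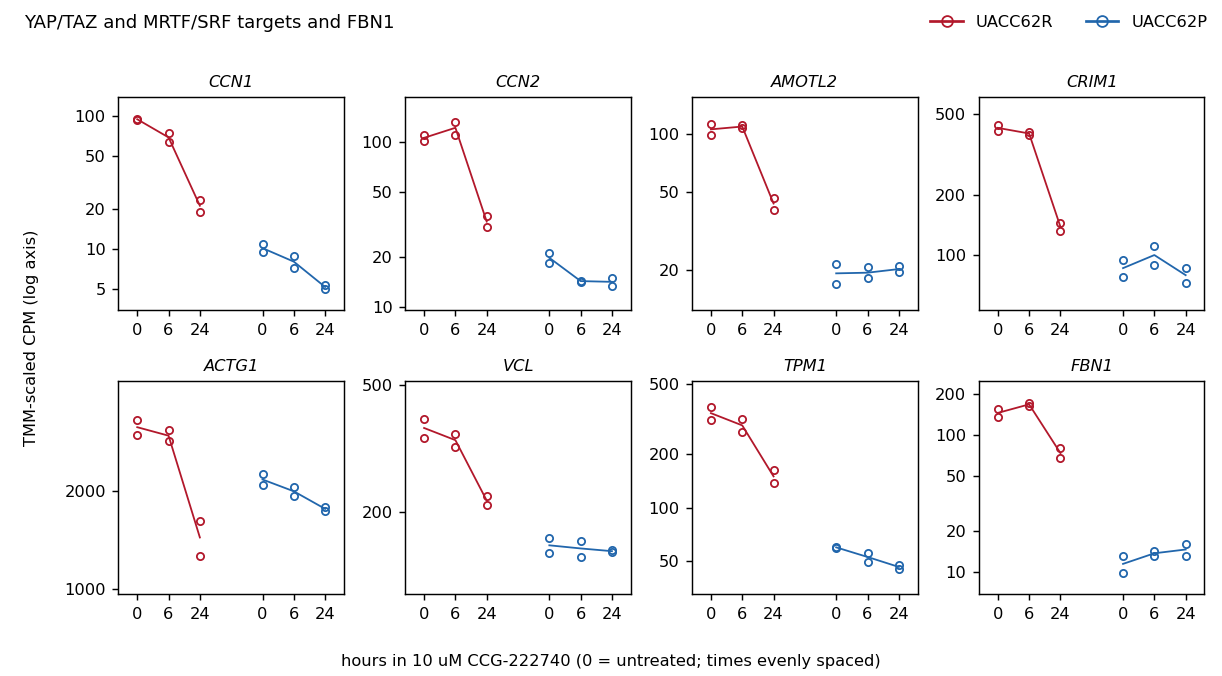
CPM on a log axis at 0, 6 and 24 h, at evenly spaced positions, in each library of UACC62R and UACC62P for 8 genes whose line difference became smaller or reversed. UACC62R falls toward UACC62P by 24 h, as in CRIM1, with 145 and 132 CPM in UACC62R against 86.5 and 72.8 CPM in UACC62P at 24 h.

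No change was called among the pathway's own parts. Of 15 MRTF, SRF and pathway components, 6 were higher and 4 lower at 24 h, and with the replicate block 2 changed upward and 2 downward. Among all 20280 genes, 28.0% were higher and 27.0% lower at 24 h, and the block called 397 changes upward and 507 downward. MRTFA had 69.3 and 65.1 CPM in UACC62R against 40.4 and 40.5 CPM in UACC62P (0.73 ± 0.09), MRTFB differed by 0.69 ± 0.16, RHOA, the GTPase that drives actin assembly, by 0.82 ± 0.06, and LIMK2, a kinase that keeps filaments from being severed, by 1.17 ± 0.11. ROCK2, a kinase downstream of RHOA, was lower (-0.83). SRF had 63.2 and 55.8 CPM in UACC62R against 68.6 and 70.6 CPM in UACC62P at 24 h and 86.4 and 79.2 CPM in UACC62R against 73.0 and 70.1 CPM in UACC62P at 0 h. It was lower in UACC62R at 24 h (-0.23 ± 0.09, adjusted p = 0.0385) and not called at 0 h (0.21, 0.0537), and the change of -0.44 ± 0.12 had an adjusted p of 0.14 (0.00822 with the replicate block). PIR, pirin, a nuclear protein that related compounds are reported to bind, had 34.3 and 35.9 CPM in UACC62R against 73.2 and 81.8 CPM in UACC62P at 24 h. Its difference was -1.14 at 24 h and -1.72 at 0 h, with a change of 0.58 ± 0.14 (adjusted p = 0.073, and 0.00563 with the replicate block).

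Among the shrunk differences outside the YAP/TAZ and MRTF/SRF lists, 6 held whichever library was left out. FBN1, fibrillin, a microfibril protein of the matrix list, had 80.0 and 67.6 CPM in UACC62R against 16 and 13.1 CPM in UACC62P at 24 h, and 154 and 136 CPM in UACC62R against 13 and 9.84 CPM in UACC62P at 0 h (change -1.32 ± 0.18, adjusted p = 0.00582). MAP3K14, the NIK kinase of noncanonical NF-kB signalling, differed by 0.48 at 24 h and 2.06 at 0 h (change -1.58 ± 0.20, adjusted p = 0.00319). UACC62R fell for both genes, and UACC62P was not called. F2RL2, a thrombin receptor, had 205 and 218 CPM in UACC62R against 17.8 and 14.7 CPM in UACC62P at 24 h, and 231 and 255 CPM in UACC62R against 8.83 and 7.6 CPM in UACC62P at 0 h. UACC62P was higher at 24 h than at 0 h, and the difference was 3.7 at 24 h and 4.89 at 0 h (change -1.18, adjusted p = 0.0028). SDC4, a syndecan of focal adhesions, had 104 and 102 CPM in UACC62R against 108 and 107 CPM in UACC62P at 24 h, and 172 and 192 CPM in UACC62R against 93.3 and 95.7 CPM in UACC62P at 0 h. Its difference of 0.94 at 0 h was -0.06 at 24 h (change -1.0, adjusted p = 0.00319).

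The difference shrank from the parental side as well. MEF2C, a MADS-box factor related to SRF, had 37.1 and 35.0 CPM in UACC62R against 58.4 and 56.3 CPM in UACC62P at 24 h, and 24.8 and 24.6 CPM in UACC62R against 88.7 and 75.6 CPM in UACC62P at 0 h (change 1.06, adjusted p = 0.00319). MT2A, a metallothionein that binds zinc, had 2090 and 1920 CPM in UACC62R against 586 and 611 CPM in UACC62P at 24 h, and 954 and 942 CPM in UACC62R against 124 and 105 CPM in UACC62P at 0 h. Both lines rose, UACC62R by 1.08 and UACC62P by 2.38 on the log2 scale, and the difference was 1.74 at 24 h and 3.05 at 0 h (change -1.3 ± 0.14, adjusted p = 0.00158). Its relative MT1X rose in both lines by 1.83 in UACC62R and 1.77 in UACC62P, and its change was 0.05 (adjusted p = 0.991). Metallothioneins are near copies of one another. SLC7A11, the cystine transporter, had 240 and 201 CPM in UACC62R against 192 and 204 CPM in UACC62P at 24 h, and 151 and 148 CPM in UACC62R against 75.3 and 63.7 CPM in UACC62P at 0 h. It rose by 0.56 in UACC62R and by 1.51 in UACC62P on the log2 scale (change -0.95, adjusted p = 0.0169). The call was lost without UACC62P 0 h replicate 2, either UACC62P 24 h library or either UACC62R 0 h library (adjusted p up to 0.087).

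4 more of the larger shrinkages were KRT80, KLF7, NR4A3 and SLC7A8. KRT80, a keratin, had 5.36 and 4.81 CPM in UACC62R against 0.307 and 0.177 CPM in UACC62P at 24 h, and 32.4 and 34.8 CPM in UACC62R against 0.277 and 0.288 CPM in UACC62P at 0 h (change -2.51 ± 0.43, adjusted p = 0.0162). KLF7, a zinc finger factor, changed by -2.07 (adjusted p = 0.0169), being lower at 24 h than at 0 h in UACC62R (-0.64) and higher in UACC62P (1.42). NR4A3, an orphan nuclear receptor, had 2.6 and 2.36 CPM in UACC62R against 3.0 and 4.88 CPM in UACC62P at 24 h, and 2.04 and 1.66 CPM in UACC62R against 11.3 and 8.47 CPM in UACC62P at 0 h (change 1.75, adjusted p = 0.0331). SLC7A8, an amino acid transporter, changed by 1.46 (adjusted p = 0.0162). With 1 library left out, each of these calls was lost for 3 to 5 of the 8 libraries, UACC62P 24 h replicate 1 among them each time, with adjusted p up to 0.397 for KRT80, 0.111 for KLF7, 0.169 for NR4A3 and 0.0927 for SLC7A8.

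3 of the 37 widened differences were in DNA replication genes, all lower in UACC62R. Of 24 G1/S and replication genes, 19 were lower and none higher at 24 h (median -0.84), against 10 lower and 1 higher at 0 h (median -0.19). The shares over all genes were 27.0% lower and 28.0% higher at 24 h, and 26.1% and 27.7% at 0 h. The change was below 0 for all 24, with a median of -0.52, and for 10611 of all 20280 genes. It was called for 3 of the 24: MCM6, MCM3 and MCM2, helicase subunits that open the DNA at origins. At 24 h against 0 h, 22 fell in UACC62R and 6 fell in UACC62P, and none rose in either line. Of all genes, 8.14% fell in UACC62R and 1.77% in UACC62P, and 0.365% had a called downward change. Calls of the change ran from 1 to 13 when 1 library was left out, with 13 without UACC62R 24 h replicate 2, and reached 15 with the replicate block.

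MCM6 (ENSG00000076003) had 38.9 and 45.0 CPM in UACC62R against 156 and 157 CPM in UACC62P at 24 h, and 81.9 and 81.1 CPM in UACC62R against 168 and 172 CPM in UACC62P at 0 h. Each UACC62R library at 24 h lay below every other library of the 4 groups. The difference was -1.9 ± 0.08 at 24 h and -1.06 ± 0.08 at 0 h, a change of -0.84 ± 0.11 (adjusted p = 0.00319). MCM3 differed by -1.14 at 24 h and -0.44 at 0 h (change -0.71, adjusted p = 0.0157) and MCM2 by -1.09 and -0.40 (change -0.69, adjusted p = 0.0161). Both calls were lost without either UACC62P 24 h library, without UACC62R 0 h replicate 2, and without UACC62P 0 h replicate 1 for MCM3 or replicate 2 for MCM2 (adjusted p up to 0.081 each). CDCA7, a chromatin protein expressed in S phase, had 5.36 and 7.55 CPM in UACC62R against 45.0 and 48.9 CPM in UACC62P at 24 h, and 18.9 and 19.3 CPM in UACC62R against 40.7 and 49.1 CPM in UACC62P at 0 h (change -1.62 ± 0.19, adjusted p = 0.00196). DTL, which directs destruction of the licensing factor CDT1, had 28.2 and 34.3 CPM in UACC62R against 67.0 and 71.0 CPM in UACC62P at 24 h, and 66.0 and 76.5 CPM in UACC62R against 80.5 and 80.4 CPM in UACC62P at 0 h. Its difference was -1.14 at 24 h and was not called at 0 h (-0.18, adjusted p = 0.144, but called with the replicate block), with a change of -0.97 ± 0.14 (adjusted p = 0.00744). POLE2, a subunit of DNA polymerase epsilon (-2.29), and E2F2 (-2.02) were further apart at 24 h than MCM6 but their change was not called. E2F motifs lay in 11 of 26 promoter windows of the list (42.3%) and in 5 of 25 windows of the widened genes with a downward change (20.0%). They also lay in 4 of 49 windows of the shrunk genes with a downward change (8.16%). These windows came from 20 of 24, 20 of 28 and 28 of 41 genes, and the list shares members with the widened genes.

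Mitotic genes had no called change. Among all genes, 28.0% were higher and 27.0% lower in UACC62R at 24 h. Of 24 G2/M genes, 3 were higher and none lower in UACC62R at 24 h, against 4 higher at 0 h, with a median of 0.08 at 24 h and 0.26 at 0 h. The 3 were NDC80, a kinetochore protein, KIF20A, a kinesin of cytokinesis, and CDC25C, a phosphatase that starts mitosis. The UACC62R libraries at 24 h differed from each other in these genes: NDC80 had 26.3 and 52.7 CPM in UACC62R against 15.7 and 17.7 CPM in UACC62P, and CDC25C 11.7 and 21.5 CPM in UACC62R against 9.1 and 9.05 CPM in UACC62P. Without UACC62R 24 h replicate 1, 9 of the 24 were higher and none lower (median 0.35), and without UACC62R 24 h replicate 2, 1 was higher and 6 lower (median -0.23). The part of this spread in the replication genes was not tested.

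**Figure D4:**
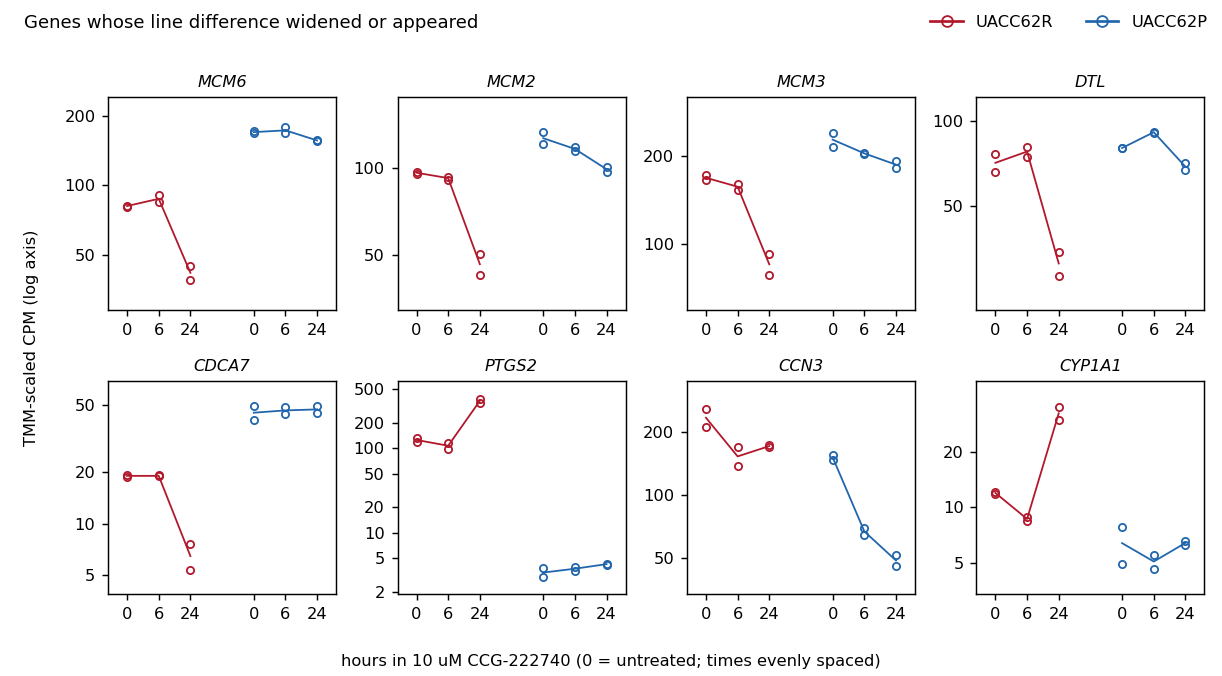
CPM on a log axis at 0, 6 and 24 h, at evenly spaced positions, in each library of UACC62R and UACC62P for 8 genes whose line difference widened or appeared. MCM6 reaches 38.9 and 45.0 CPM in UACC62R against 156 and 157 CPM in UACC62P at 24 h, and PTGS2 reaches 389 and 341 CPM in UACC62R against 4.29 and 4.17 CPM in UACC62P.

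Other widened differences went both ways. CCN3, a matricellular relative of CCN2 with opposed actions in several tissues, had 170 and 173 CPM in UACC62R against 45.4 and 51.5 CPM in UACC62P at 24 h, and 212 and 257 CPM in UACC62R against 147 and 156 CPM in UACC62P at 0 h. It fell in both lines, by 0.45 in UACC62R and by 1.65 in UACC62P on the log2 scale, so the difference was 1.82 at 24 h and 0.63 at 0 h (change 1.19 ± 0.16, adjusted p = 0.00582). IL1RAP, the shared subunit of interleukin-1 family receptors, had 57.2 and 55.7 CPM in UACC62R against 593 and 575 CPM in UACC62P at 24 h, and 109 and 112 CPM in UACC62R against 698 and 657 CPM in UACC62P at 0 h (change -0.75, adjusted p = 0.00319). FRMD5, a FERM domain protein, had 9.55 and 9.32 CPM in UACC62R against 37.6 and 39.8 CPM in UACC62P at 24 h (-2.03 at 24 h, -1.1 at 0 h, change -0.93, adjusted p = 0.00744).

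PTGS2, the inducible cyclooxygenase, had 389 and 341 CPM in UACC62R against 4.29 and 4.17 CPM in UACC62P at 24 h, and 132 and 119 CPM in UACC62R against 3.77 and 2.95 CPM in UACC62P at 0 h (change 1.21 ± 0.19, adjusted p = 0.0125). CYP1A1, the classic target of the aryl hydrocarbon receptor, had 29.8 and 34.8 CPM in UACC62R against 6.58 and 6.22 CPM in UACC62P at 24 h, and 11.8 and 12.1 CPM in UACC62R against 4.95 and 7.82 CPM in UACC62P at 0 h (change 1.43 ± 0.24, adjusted p = 0.016). UACC62R was higher for both genes at both times, and UACC62P was not called at 24 h against 0 h. All 5 genes tested of the receptor's list, AHR itself and 4 targets, were higher in UACC62R at 24 h (3 without UACC62P 24 h replicate 1), AHR by 1.03, TIPARP by 0.97 and AHRR by 0.63, and the change was called for CYP1A1 only. Among all genes, 28.0% were higher at 24 h. ID2, an inhibitor of helix-loop-helix factors, and NCALD, a calcium sensor, widened upward (changes of 1.0 and 1.11, adjusted p = 0.0399 and 0.0419), and ZNF367, a zinc finger factor, downward (-1.16, 0.0169). With 1 library left out, the call of NCALD was lost for 7 of the 8 libraries and that of ZNF367 for 6. The calls of PTGS2 and CYP1A1 were lost without either UACC62P 24 h library, without UACC62R 0 h replicate 2, and without UACC62P 0 h replicate 1 for PTGS2 or replicate 2 for CYP1A1 (adjusted p up to 0.083 and 0.0841), and that of ID2 with 6 of the 8 libraries (up to 0.185).

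Besides DTL, 7 of the 12 differences that appeared were named by the rule. With the replicate block, DTL and TMX4 were also called lower in UACC62R at 0 h, which made DTL a widened difference and TMX4 a reversed one. SIK1, a kinase of the AMPK family, had 5.72 and 5.27 CPM in UACC62R against 12.9 and 12 CPM in UACC62P at 24 h, and 12.5 and 14.7 CPM in UACC62R against 14.4 and 13.5 CPM in UACC62P at 0 h (-1.18 at 24 h, -0.04 at 0 h, adjusted p of the change 0.0161). The other 6 were higher in UACC62R at 24 h: RAB5IF (1.14), GBP2, an interferon-induced GTPase (1.12), KLHL24, a ubiquitin ligase adaptor (0.88), ZFYVE27 (0.70), RETSAT, retinol saturase (0.58), and TMX4, a thioredoxin-like protein of the endoplasmic reticulum (0.49). The call of the change was lost for GBP2 with any of the 8 libraries left out, and for KLHL24 and ZFYVE27 with 7 of them. It was lost with 6 for RAB5IF, 4 for SIK1 and RETSAT and 3 for TMX4.

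Of the 7 reversed genes, ACTG1 was the 1 that ended lower in UACC62R. BMF, a BH3-only protein that promotes apoptosis, had 4.51 and 5.77 CPM in UACC62R against 2.59 and 2.72 CPM in UACC62P at 24 h, and 2.64 and 3.01 CPM in UACC62R against 4.85 and 4.47 CPM in UACC62P at 0 h (change 1.68 ± 0.33, adjusted p = 0.031). SCARA5, a scavenger receptor, changed by 1.92 ± 0.33 (adjusted p = 0.0162) at like levels. PLA2G4A, the phospholipase that releases arachidonic acid, ARID5B, BTN3A2 and CRELD2, an endoplasmic reticulum chaperone, were each higher by 0.24 to 0.29 at 24 h and lower by 0.32 to 0.57 at 0 h. DESeq2 gave no adjusted p for 3 of the 121 changes, BMF and SCARA5 among them, and called the other 118. No reversal held with every library left out in turn.

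Fewer MAPK targets and immediate early genes were higher than lower in UACC62R at 24 h, where 28.0% of all genes were higher and 27.0% lower. Of 16 MAPK output genes, 3 were higher and 6 lower at 24 h (median 0.08, and -0.23 at 0 h), and of 18 immediate early genes 4 were higher and 9 lower (median -0.53, and -0.88 at 0 h). MYC had 26.2 and 22.1 CPM in UACC62R against 212 and 194 CPM in UACC62P at 24 h (-3.07 at 24 h, -2.44 at 0 h), and its change of -0.64 was not called (adjusted p = 0.0657, and 0.000122 with the replicate block). SPRY4 (-1.74), a feedback inhibitor of receptor signalling, ETV4 (-1.54), an ETS factor, NR4A1 (-3.66), EGR1 (-2.14) and FOS (-2.12) were lower, and CCND1, cyclin D1, was higher (1.52). NR4A3 was the 1 member of both lists that changed, whereas the replicate block called 7 MAPK output genes and 3 immediate early genes. Of 18 NF-kB targets and cytokines, 11 were higher and 2 lower at 24 h (median 1.72, and 0.97 at 0 h). CXCL8, a neutrophil chemokine, had 255 and 294 CPM in UACC62R against 13.8 and 9.33 CPM in UACC62P (4.57 at 24 h, 4.55 at 0 h). CCL2 (7.98), CXCL1 (4.88) and IL11 (3.47) were also higher, and none of the 18 changed (3 with the replicate block).

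Genes of the ATF4 and amino acid response were further below UACC62P at 24 h than at 0 h in their median. Of 20 tested, 13 were lower and 1 higher in UACC62R at 24 h (median -1.01), against 8 lower and 4 higher at 0 h (median -0.35). The shares over all genes were 27.0% lower and 28.0% higher at 24 h, and 26.1% and 27.7% at 0 h. The change lay below 0 for 10611 of all 20280 genes. The change lay below 0 for 17 of them (median -0.48), and 3 changed, all downward: SLC7A11, described above, SLC7A1, a cationic amino acid transporter (-0.15 at 24 h, 0.63 at 0 h, change -0.78, adjusted p = 0.00977), and MTHFD2, a mitochondrial folate enzyme (-1.51 and -0.89, change -0.62, adjusted p = 0.0331). At 24 h against 0 h, 5 genes of this list rose and 2 fell in UACC62R, where 1315 of all genes (6.48%) rose, and 9 rose and none fell in UACC62P, where 474 of all genes (2.34%) rose. The replicate block called 10 changes, and leaving out 1 library 0 to 4. Of 17 endoplasmic reticulum chaperones, 4 were higher and 3 lower at 24 h and 2 higher and 9 lower at 0 h. The change lay above 0 for 15 of the 17 (median 0.27) and was called for CRELD2 alone (6 with the replicate block, all upward). It lay above 0 for 9669 of all 20280 genes.

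The 23 sterol genes held 15 lower and none higher at 24 h (median -0.61, and -0.82 at 0 h). The shares over all genes at 24 h, for this list and those that follow, were 28.0% higher and 27.0% lower. Of 20 NRF2 and glutathione genes, 14 were higher and 2 lower (median 0.70, and 0.54 at 0 h), led by AKR1B10 (4.81), AKR1C2 (3.89) and AKR1C3 (3.41), whose family shares near-identical sequence. Heat shock genes (7 higher and 4 lower of 15) and glycolysis and hypoxia genes (12 higher and 4 lower of 24, with CA9, a hypoxia-induced carbonic anhydrase, at 3.96) had no called change. Of 18 antigen presentation genes, 14 were higher and 1 lower (median 0.73, and 0.79 at 0 h), HLA-B by 3.38 at 24 h and 3.26 at 0 h, and of 20 interferon-stimulated genes 11 were higher and none lower (median 0.45, and 0.27 at 0 h), BST2, tetherin, by 3.28. Reads of HLA genes are uncertain where alleles differ from the reference. Of 20 p53 targets, 8 were higher and 5 lower (median 0.14, and 0.07 at 0 h), with CDKN1A, the cell cycle inhibitor p21, at 575 and 563 CPM in UACC62R against 252 and 223 CPM in UACC62P (1.26). Scaling by library size alone made that split 9 higher and 2 lower.

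**Figure D5:**
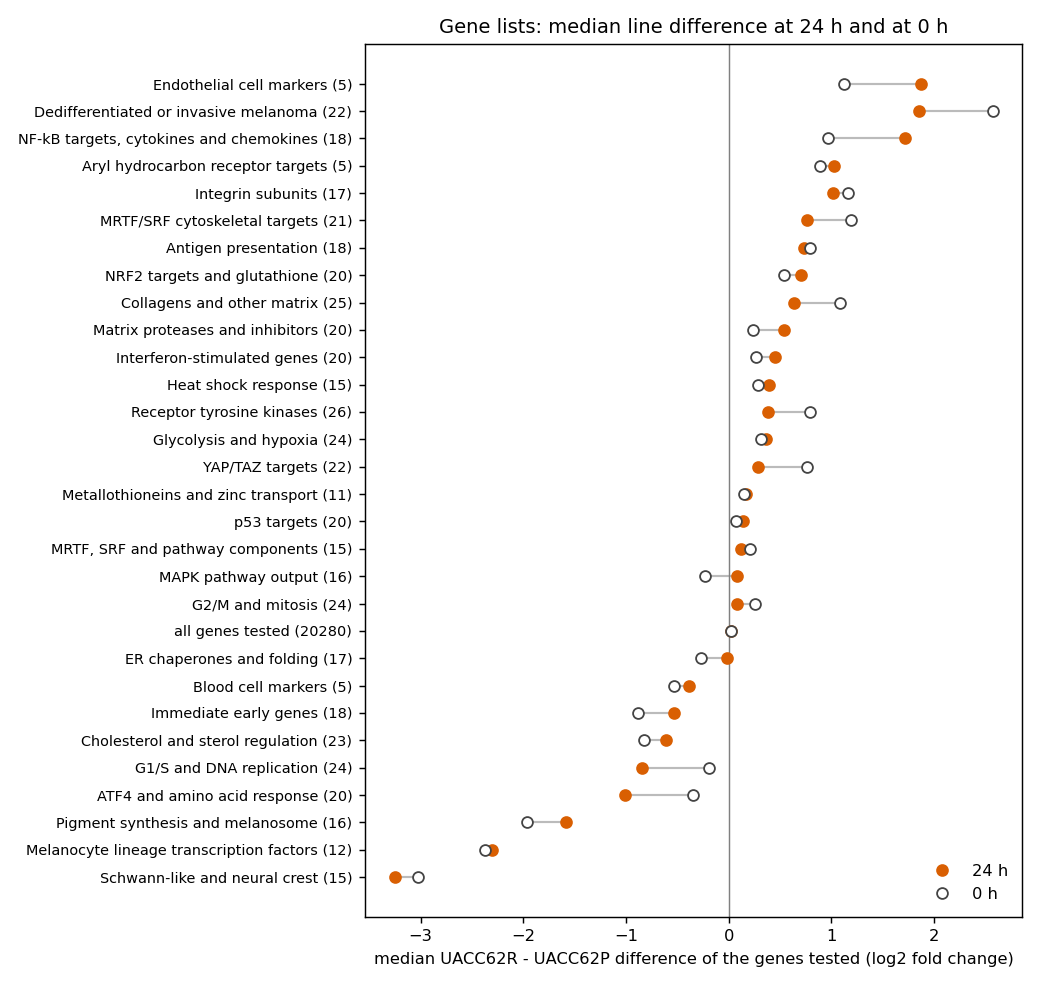
Median log2 difference of UACC62R over UACC62P at 24 h (filled) and at 0 h (open) over the tested members of each gene list, with counts of tested members beside the names. The YAP/TAZ median is 0.29 at 24 h and 0.76 at 0 h, the G1/S and replication median -0.84 and -0.19, and that of the Schwann-like genes -3.25 and -3.02.

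At 6 h the lines differed in 10410 genes (51.3%), 5343 higher (26.3%) and 5067 lower (25.0%) in UACC62R. Between 6 h and 24 h the line difference changed for 194 genes (0.957%), 51 upward (0.251%) and 143 downward (0.705%). Of the MRTF/SRF targets 6, of the YAP/TAZ targets 4 and of the replication genes 6 were among them, all downward, and their median line differences at 6 h were 1.13, 0.61 and -0.27. Over 0, 6 and 24 h the YAP/TAZ median ran 0.76, 0.61 and 0.29, that of MRTF/SRF targets 1.19, 1.13 and 0.76, and that of replication genes -0.19, -0.27 and -0.84. The medians at 6 h were thus nearer to those at 0 h than to those at 24 h. The changes at 24 h against 6 h and against 0 h share the libraries at 24 h.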

How the data were processed

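RNA of UACC62R and UACC62P at 0, 2, 6 and 24 h was sequenced as stranded poly(A) libraries with single 50 bp reads, per the labels' protocols. The submitters' processing notes name HTSeq 0.6.1, HISAT2 2.1.0, Trimmomatic 0.33, FastQC 0.11.5 and bcl2fastq 2.19.0, and hg19 as the build. HTSeq's strand setting was not given in the sources used here, which leaves overlapping genes on opposite strands uncertain. The authors deposited raw read counts for 63677 Ensembl gene IDs per library, with no normalization, and 5 summary lines that stayed out of library sizes. Over the libraries these lines held 6.12 to 17.8% of reads not aligned, 18.6 to 22.0% aligned to more than 1 place and not counted for a gene, and, of uniquely aligned reads, 3.31 to 4.66% outside genes and 5.99 to 6.81% shared by overlapping genes. Genes with near copies, such as actins, metallothioneins, HSPA1A and HSPA1B, AKR1C and HLA genes, are therefore undercounted or uncertain. Symbols matched 52181 IDs.

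Counts of 15 libraries were scaled by TMM and filtered by filterByExpr, which kept 20280 genes, and 1 edgeR 4.0.16 quasi-likelihood fit (robust, R 4.3.3, limma 3.58.1) with a coefficient per group and 7 residual degrees of freedom gave every comparison. All groups enter so that they share 1 estimate of the spread. A gene is called where its p, adjusted by Benjamini and Hochberg's method across the 20280 genes, is under 0.05. Standard errors were taken as log2 fold changes over the square root of F. CPM values are scaled by TMM. Scripts were tested on simulated data. The alternatives were all 16 libraries, the 8 libraries at 0 and 24 h, the 4 at 24 h, the replicate number as a block, DESeq2 1.42.0, RLE and library size scaling, no filter, and each of the 8 libraries left out.

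The replicate numbers pair the libraries by the data: deviations of same-numbered libraries from their group means correlated at 0.174 to 0.718 over 21 pairs of groups (8273 genes whose mean log2 CPM was 4 or more), and at 0.313 to 0.663 for the 6 pairs at 0 and 24 h. The labels do not say what a number stands for.

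The rule for named genes took, at 24 h, the 10 called genes each way with the largest log2 fold change whose mean log2 CPM was 2 or more, with no overlap and at least 10 reads in the lower group, and 5 each way with under 10 reads in 1 line. For the change it took the 8 largest among shrunk, widened and appeared genes each, with the same floor on mean log2 CPM and no overlap in the larger difference, and up to 8 reversed genes with no floor. The floor passed over GMPR, the largest widened change. The rule also took from each list up to 4 members called at 24 h and 3 changed ones, and 16 genes always, among them MRTFA, SRF, MITF, AXL, EGFR, CCN1 and PIR. It passed over unnamed clones, pseudogenes, antisense and small RNAs. Genes named outside it (F2RL2, SDC4, MEF2C, FRMD5, IL1RAP, VCL, ACTB, FHL2, TPM4, LIMA1, F2RL1, JAG1, HBEGF, TNFRSF12A, NF2, CDK6 and ETS1) were chosen after their values were seen. Some list members are not reported here by name. The members and all gene lists were chosen with earlier results of these data known.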

Additional observations from a re-analysis of the deposited data

Results flagged for a closer look

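For 64 named genes the difference between the lines at 24 h was not that at 0 h by the test of the change itself (log2, 24 h minus 0 h). Their per-library values for the leading genes stand above. No explanation was tested.

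Among the shrunk differences that were higher in UACC62R at 0 h, the change was -2.51 for KRT80, -2.07 for KLF7, -1.58 for MAP3K14, -1.51 for CRIM1, -1.33 for AMOTL2, -1.32 for FBN1, -1.3 for MT2A, -1.2 for CCN2, -1.19 for CCN1 and -1.18 for F2RL2. It was -1.11 for F2RL1, -1.02 for JAG1, -1.0 for SDC4, -0.95 for SLC7A11, -0.87 for HBEGF, -0.82 for TPM1, -0.79 for KRT18 and for ITGAV, and -0.78 for SLC7A1. It was -0.70 for VCL and for PDLIM7, -0.67 for TNFRSF12A, -0.65 for LIMA1, -0.63 for ACTB, -0.62 for COL6A1, -0.61 for FOSL1, -0.53 for FHL2, -0.52 for NF2 and -0.48 for TPM4. Shrunk differences that were lower in UACC62R at 0 h changed by 1.75 (NR4A3), 1.46 (SLC7A8) and 1.06 (MEF2C).

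Among the widened differences, the change was -1.62 for CDCA7, -1.16 for ZNF367, -1.11 for PLAT, -0.93 for FRMD5, -0.84 for MCM6, -0.79 for CDK6, -0.75 for IL1RAP, -0.71 for MCM3, -0.69 for MCM2, -0.62 for MTHFD2, -0.56 for TYRO3 and -0.55 for ETS1, all lower in UACC62R. It was 1.43 for CYP1A1, 1.21 for PTGS2, 1.19 for CCN3, 1.11 for NCALD and 1.0 for ID2, all higher in UACC62R.

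Differences that appeared changed by 1.33 (RAB5IF), 0.88 (KLHL24), 0.86 (GBP2), 0.75 (ZFYVE27), 0.68 (TMX4), 0.67 (RETSAT), -0.97 (DTL) and -1.14 (SIK1). Reversed differences changed by 1.92 (SCARA5), 1.68 (BMF), 0.81 (PLA2G4A), 0.80 (ARID5B), 0.61 (BTN3A2), 0.60 (CRELD2) and -0.83 (ACTG1).

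The library labelled UACC62P 2 h replicate 1, outside the comparisons above, lay at 0.987 on the scale from UACC62P (0) to UACC62R (1), within the range of the libraries labelled UACC62R.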

How the results depend on the processing

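The differences at 24 h were stable in number. 11145 were called as reported, and 9455 to 11128 with 1 library left out, 8130 in all 16 libraries, 10231 in the 4 at 24 h, 10558 by DESeq2 and 12145 with the replicate block. The changes were not. The 121 changes called (47 upward, 74 downward; 65 shrunk, 37 widened, 12 appeared, 7 reversed) numbered 36 (10 and 26; 23, 10, 2 and 1) in the 8 libraries at 0 and 24 h, 399 (167 and 232; 192, 125, 70 and 12) by DESeq2, 595 (268 and 327; 297, 173, 104 and 21) with no filter, 904 (397 and 507; 396, 333, 130 and 45) under the replicate block, and 0 (0 and 0; 0 in each class) in all 16 libraries, where the common dispersion was 0.0622 against 0.00985. With 1 library left out they ran from 17 to 184 (3 to 66 and 14 to 118; 11 to 86 shrunk, 5 to 59 widened, 1 to 33 appeared, 0 to 6 reversed), with 17 without UACC62P 24 h replicate 1, 22 without UACC62R 0 h replicate 2, 33 without UACC62P 24 h replicate 2, 47 and 66 without UACC62P 0 h replicates 2 and 1, 80 without UACC62R 24 h replicate 1 and 184 without UACC62R 24 h replicate 2. The 194 changes between 6 and 24 h (51 upward, 143 downward) numbered 499 (154 and 345) by DESeq2, 706 (255 and 451) with no filter, 1272 (480 and 792) with the replicate block, 0 (0 and 0) in all 16 libraries, and 49 to 268 (5 to 76 and 43 to 192) with 1 library left out. The 10410 genes called at 6 h, 5067 of them lower, were 6819 with 3249 lower in all 16 libraries. The fit as reported had 7 residual degrees of freedom, each fit with 1 library left out 6, and that of the 8 libraries 4. The cause of the loss with fewer libraries was not tested.

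Of the 64 named changes, all kept their direction under every alternative that gave a value (DESeq2 gave an adjusted p for 62), and the call was lost for 36 in the 8 libraries, 64 in all 16, 3 with library size scaling, none with RLE scaling, no filter or the replicate block, and 9 (without UACC62R 24 h replicate 2) to 49 (without UACC62P 24 h replicate 1) with 1 library left out. Of the named differences at 24 h, at most 23 of 200 lost their call under any 1 alternative (all 16 libraries) and none reversed. With 2 libraries a group, low genes such as ANKRD1, DCT and IRF4 have wide errors.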

Other observations

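Among the shrunk differences not yet described were those of HBEGF, JAG1, F2RL1, TNFRSF12A and NF2, chosen after their values were seen. HBEGF, a ligand of EGFR, had 16 and 15.6 CPM in UACC62R against 15.1 and 15.7 CPM in UACC62P at 24 h, and 39.1 and 43.6 CPM in UACC62R against 20.5 and 23.7 CPM in UACC62P at 0 h. The libraries of the lines overlapped at 24 h and not at 0 h (log2 difference 0.04 at 24 h, 0.91 at 0 h). JAG1, a Notch ligand, had 76.6 and 86.3 CPM in UACC62R against 70.5 and 70.3 CPM in UACC62P at 24 h, and 145 and 157 CPM in UACC62R against 68.1 and 60.9 CPM in UACC62P at 0 h. F2RL1, a protease-activated receptor, differed by 2.04 at 24 h and 3.14 at 0 h, and TNFRSF12A, the TWEAK receptor, by 0.98 and 1.65. NF2, merlin, the tumour suppressor upstream of the Hippo kinases, had 89.4 and 95.6 CPM in UACC62R against 82.2 and 77.2 CPM in UACC62P at 24 h, and 143 and 145 CPM in UACC62R against 88.8 and 84.7 CPM in UACC62P at 0 h (0.22 at 24 h, 0.73 at 0 h). For all 5 genes UACC62R fell at 24 h against 0 h, and for HBEGF and TNFRSF12A UACC62P fell as well, by 0.52 each on the log2 scale.

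On the widening side, CDK6, a kinase of G1 entry, had 97 and 91.2 CPM in UACC62R against 276 and 243 CPM in UACC62P at 24 h, and 149 and 146 CPM in UACC62R against 250 and 219 CPM in UACC62P at 0 h (-1.46 at 24 h, -0.67 at 0 h). Its call was lost without UACC62P 24 h replicate 1 (adjusted p = 0.0605). ETS1, a transcription factor, had 27.1 and 25.2 CPM in UACC62R against 121 and 115 CPM in UACC62P at 24 h (-2.17 at 24 h, -1.62 at 0 h). With 1 library left out, calls of these other genes were lost for 3 (F2RL1), 4 (JAG1 and HBEGF), 6 (TNFRSF12A) and 7 (NF2 and ETS1) of the 8 libraries, with adjusted p up to 0.193.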
